A study of Mus musculus with 26 samples.

Results

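Small peritoneal macrophages (SPMs) and MHCII negative lung macrophages, both from naive female WT mice, were compared with each other. The members were the 9 WT macrophage libraries of the 26 libraries in the series: 4 WT SPM libraries and 5 WT lung libraries. The mice were of the C57BL/6J strain and carried neither a transgene nor a treatment, and all 9 samples had an intact Ackr2 gene, whose loss is studied in the rest of the series. SPMs were sorted from cells washed out of the peritoneal cavity as CD45+ cells with intermediate F4/80 and with MHCII, among other gates, with several mice pooled for each sample. Lung cells were released by enzyme digestion and sorted by gates that included CD45+ Ly6G- SiglecF- Ly6C- CD11b+ F4/80+ MHCII- cells, and neither the labels nor the methods say how many mice stand behind a lung sample. The lung cells are called lung macrophages after that sort, and their identity was not tested. Nonclassical monocyte genes were mostly higher in them than in SPMs, and lung interstitial macrophage genes went both ways, as given below. The labels give no age. The SPM libraries were deposited in one count table and the lung libraries in another, so tissue, way of taking the cells, annotation release and counting coincide and cannot be told apart anywhere in what follows.

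Macrophages are long-lived phagocytes that take on the character of the tissue they sit in. In the serous cavities the large resident cells depend on the transcription factor GATA6, while SPMs descend from CCR2-expressing monocytes, carry MHC class II and present antigen. In the lung, alveolar macrophages live in the airspaces and handle surfactant, and interstitial macrophages and monocyte-derived cells occupy the tissue around vessels and airways. Nonclassical monocytes, which patrol the vessel wall, depend on the nuclear receptor NR4A1 and are also CD11b+, F4/80+ and low for Ly6C and MHC class II. Colony stimulating factor 1, through its receptor CSF1R, supports most of these cells.

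Read depth on annotated genes ran from 12781144 to 29474570 in the SPM libraries and from 20245488 to 24219146 in the lung libraries. The 10 most abundant genes held between 37.1% and 40.5% of the reads in SPMs but between 8.71% and 15.7% in the lung, so levels are given as normalised read counts (CPM), that is counts scaled to a common library size with TMM factors, which correct for such a difference in composition. The TMM factors were 0.525 to 0.776 in SPMs and 1.37 to 1.69 in the lung. Lung replicate 3 stood apart from the other lung libraries, with high MHC class II, complement C1q and B cell transcripts and low nonclassical monocyte transcripts, and lung replicate 5 had the fewest epithelial and stromal reads. SPM replicate 1 stood apart from the other SPM libraries, with a correlation of log2 CPM of 0.922 to 0.946 to them against 0.975 to 0.987 among the others. Where leaving out one of these libraries ended a call given here, turned its direction or moved its log2 fold change by a factor of more than 1.5 in fold, the value without it is given. Ratios and bounds from few reads are given without such refits.

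Of 15716 genes tested, 8882 (56.5%) were called different between the tissues, at an adjusted p under 0.05 and a log2 fold change of more than 0.5 in either direction. SPMs were higher for 3624 genes (23.1%) and lung macrophages for 5258 genes (33.5%). More than 8-fold differences were called for 769 genes higher in SPMs (4.89%) and 2797 genes higher in the lung (17.8%). Fold changes are on the log2 scale as SPM minus lung, so positive values are higher in SPMs, and the median over all tested genes was -0.25. Without lung replicate 3 the counts were 3440 and 5039. When libraries were scaled by their size alone the median moved to -1.60 and the counts became 1305 higher in SPMs and 10118 higher in the lung, that is 11.4% of the calls in the SPM direction against 40.8% with TMM.

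The calls differed with the layout of the genes. Among 9659 tested genes that share no exon with another annotated gene, 26.9% were called higher in SPMs and 26.4% higher in the lung, with a median log2 fold change of -0.01. Among 5305 genes that share exon sequence with a gene on the opposite strand, 15.2% were higher in SPMs and 47.9% were higher in the lung, with a median of -0.88. Pde6h, a cone phosphodiesterase subunit whose exons overlap those of the abundant leukocyte gene Arhgdib on the other strand, is an example chosen after its values were seen. Its level was 0.0729, 0, 0 and 0.0628 CPM in SPMs and 409, 342, 371, 338 and 516 CPM in the lung. Per the labels, the RNA was amplified to double-stranded cDNA with a SMARTer kit before fragmentation and adaptor ligation, a procedure that does not keep the strand, so reads from overlapping genes cannot be told apart, and the tables may treat such reads differently, which was not tested. A refit with the 9611 genes of the first kind that passed the filter gave 2168 higher in SPMs (22.6%) and 2913 higher in the lung (30.3%). The TMM factors were recomputed on these genes alone, and the refit median was -0.25, against -0.01 for this kind in the main fit. The difference between the 2 splits therefore came with a change of scaling. Overlaps are named below beside genes they affect, though not for every gene.

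**Figure D1:**
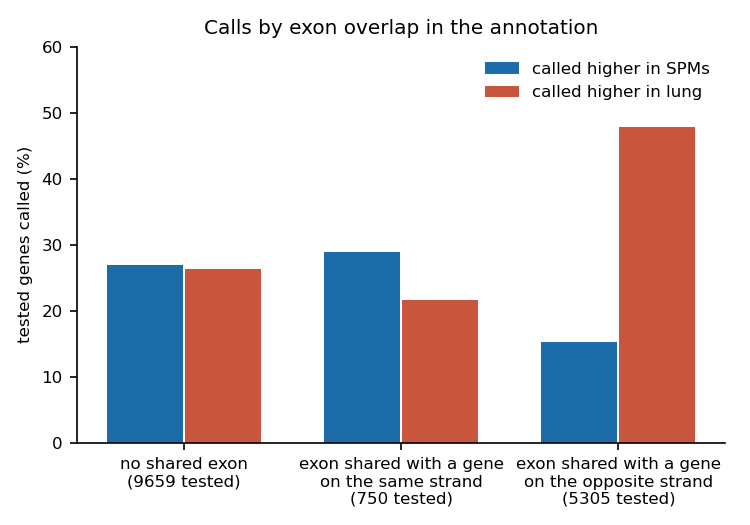
Share of tested genes called higher in WT SPMs (blue) or in WT lung macrophages (red), in percent, by whether the gene shares exon sequence with another gene in the annotation. Among genes sharing an exon on the opposite strand the red bar (47.9%) is taller than the blue one (15.2%), whereas the bars are 26.4% and 26.9% where no exon is shared.

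Alox15, Ctse, Cxcr4 and Csf1r served as markers of the contrast. Alox15, at chr11:70344152-70352031 (GRCm38), encodes the 12/15-lipoxygenase that oxygenates arachidonic acid and is a known product of cavity macrophages and of eosinophils. Its level was 80.9, 471, 585 and 823 CPM in the SPM libraries and 0.502, 16.3, 0.51, 0 and 33.0 CPM in the lung libraries. The groups did not overlap, although SPM replicate 1 was well below the other SPM libraries, and the log2 fold change was 5.61, SE 1.47, adjusted p = 0.00623, or 6.63 without lung replicate 5, which held the most in the lung. Ctse, at chr1:131638306-131675505, encodes cathepsin E, an aspartic protease of endosomes. It was at 32.8, 53.2, 59.9 and 65.9 CPM in SPMs and 4.86, 6.19, 5.03, 5.24 and 7.42 CPM in the lung, again without overlap (3.20, SE 0.27, adjusted p = 2.49e-06).

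Cxcr4, at chr1:128588199-128592293, encodes the receptor for CXCL12 that retains leukocytes in marrow and tissue. Its level was 0.657, 3.10, 1.64 and 3.33 CPM in SPMs and 52.0, 62.6, 33.6, 95.6 and 103 CPM in the lung. Every lung library was at least several-fold above every SPM library, with a log2 fold change of -4.97, SE 0.53, adjusted p = 1.27e-05. Csf1r was at 456, 224, 171 and 289 CPM in SPMs and 770.2, 922, 650, 1009.7 and 1380.1 CPM in the lung. It was thus abundant in both tissues and higher in the lung by 3.32-fold (-1.73, SE 0.35, adjusted p = 0.00109), and it shares exon sequence with Hmgxb3 on the opposite strand. None of these 4 calls was lost when any single library was left out. In bulk samples fewer cells of a type and less RNA per cell cannot be told apart, and this holds for every level given here.

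**Figure D2:**
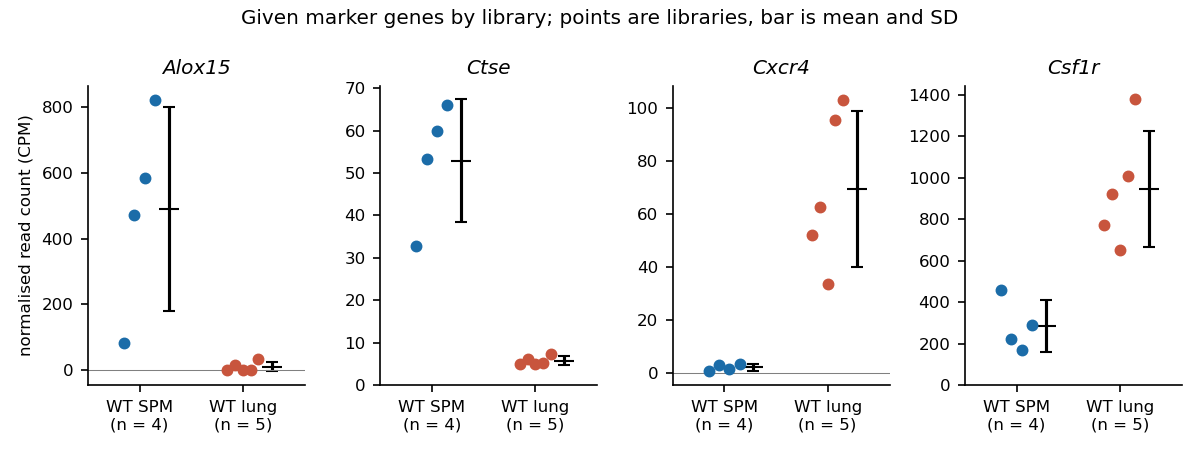
Normalised read counts (CPM) of the marker genes in each WT SPM library (blue, n = 4) and each WT lung library (red, n = 5), with the mean and SD in black. SPM and lung points do not overlap for any of the 4 genes: Alox15 and Ctse are higher in SPMs, Cxcr4 and Csf1r in the lung.

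The same contrast in ACKR2-/- mice, in 4 SPM and 5 lung libraries not used above but from the same tables, gave the same direction and a call for 7852 of the 8882 WT calls (88.4%), and the opposite call for 5. Ctse was one of the 5. It was at 2.86, 3.96, 3.68 and 2.68 CPM in ACKR2-/- SPMs and at 6.78, 7.12, 4.34, 12.0 and 4.50 CPM in ACKR2-/- lung macrophages, so that the tissue difference there was -1.08 (adjusted p = 0.014). The difference between genotypes in the tissue effect was 4.16 on the log2 scale (adjusted p = 4.79e-05). The tissue difference of Ctse therefore held in WT mice and ran the other way in ACKR2-/- mice. Btg2, a further named gene whose tissue difference differed between genotypes, lies on the same chromosome as Ctse, at chr1:134075170-134079120. Ackr2 itself lies on chromosome 9. Per the paper, WT mice were purchased and ACKR2-/- mice were bred in house. Whether loss of Ackr2 or another difference between these mice underlies the Ctse result was not tested. Alox15, Cxcr4 and Csf1r kept their direction in ACKR2-/- mice, with log2 fold changes of 7.06, -7.07 and -1.74.

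Promoter sequence is shown for Cxcr4, a marker with a lung-high pattern, and for Retnla, a leading gene with an SPM-high pattern. The plan named the markers of the contrast, so Retnla is an addition to it. Promoters of Alox15 and Ctse were not found in the reference used, and that of Csf1r, also higher in the lung, is not shown. The 250 bases before the annotated RefSeq start (GRCm38.p6) were read in the direction of transcription, and are printed up to the start of the gene in the SPM table where that lies earlier, which left 192 bases for Retnla. The whole stretch was searched on both strands for GAGGAA, a core of sites for the macrophage factor PU.1, for AGATAA, bound by GATA factors, and for TGANTCA, bound by AP-1. Capitals mark a match. The Cxcr4 sequence lies at chr1:128592300-128592549 on the minus strand, and the Retnla sequence at chr16:48842359-48842550 on the plus strand.
Cxcr4: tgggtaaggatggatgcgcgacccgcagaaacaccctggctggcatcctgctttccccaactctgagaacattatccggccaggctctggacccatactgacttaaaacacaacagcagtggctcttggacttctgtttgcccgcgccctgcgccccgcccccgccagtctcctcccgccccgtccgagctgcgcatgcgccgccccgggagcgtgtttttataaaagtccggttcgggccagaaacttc
Retnla: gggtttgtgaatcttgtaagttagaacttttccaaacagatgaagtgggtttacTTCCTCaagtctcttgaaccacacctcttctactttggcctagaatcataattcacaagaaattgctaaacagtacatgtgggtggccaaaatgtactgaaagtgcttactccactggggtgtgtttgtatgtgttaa
Retnla had 1 match, the PU.1 letters on the minus strand (TTCCTC as printed) beginning 196 bases before the start, and Cxcr4 had 0 matches to any of the 3. Of 32851 promoters of the same length, 23.3% held the PU.1 letters, 9.99% the GATA letters and 6.75% the AP-1 letters.

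Retnla and Saa3 were among the leading genes higher in SPMs. Retnla, the alternative-activation protein RELM alpha, was at 130500, 115980, 112850 and 101160 CPM in SPMs and 16.1, 24.1, 175, 7.40 and 5.49 CPM in the lung. It took 10.1%, 6.10%, 5.92% and 5.48% of the reads on genes in the 4 SPM libraries, and the log2 fold change was 11.30, SE 1.28, adjusted p = 1.92e-05. Saa3, an acute-phase serum amyloid made by macrophages, was at 894, 2634, 4680.4 and 3862 CPM in SPMs and 0.659, 3.35, 0.544, 0.174 and 7.70 CPM in the lung (10.25, SE 1.18, adjusted p = 2.12e-05). Leading genes were picked only among called genes whose groups do not overlap, so the lack of overlap was set by that rule. Lung replicate 3 held the most Retnla among the lung libraries, and without it the log2 fold change of Retnla was 12.92. That of Saa3 was 11.12 without lung replicate 5.

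The other leading genes higher in SPMs were Akr1c18, a steroid dehydrogenase (100.4 ± 35.4 CPM in SPMs and 0.0796 ± 0.142 CPM in the lung; 10.10, SE 0.79, adjusted p = 1.44e-06), Gbp2b, an interferon-induced GTPase (144 ± 23.0 CPM in SPMs and 0.329 ± 0.465 CPM in the lung; 8.78, SE 0.92, adjusted p = 1.06e-05), Fabp7, a fatty acid binding protein (194 ± 70.1 CPM in SPMs and 0.505 ± 0.251 CPM in the lung; 8.55, SE 0.49, adjusted p = 3.66e-07), Lyz1, Spink2 and Mucl1. Lyz1, a lysozyme gene, was at 18893, 66934, 46271 and 39614 CPM in SPMs and 138, 95.4, 149.8, 97.9 and 41.3 CPM in the lung (8.68, SE 0.61, adjusted p = 7.72e-07). Its neighbour Lyz2 is nearly identical, so reads could be split between them, and Lyz2 was also higher in SPMs (171650 ± 46829 CPM in SPMs and 12633 ± 3144 CPM in the lung; 3.76, SE 0.43, adjusted p = 2.04e-05). Spink2, a protease inhibitor (201 ± 31.3 CPM in SPMs and 0.508 ± 0.595 CPM in the lung), and Mucl1, a mucin-like protein (203 ± 54.2 CPM in SPMs and 0.422 ± 0.943 CPM in the lung), had log2 fold changes of 8.65 and 8.96. All lung reads of Mucl1, 62 in number, came from lung replicate 3, and its fitted log2 fold change was 15.1 without that library. Without that library the log2 fold changes of Gbp2b and Spink2 were 9.84 and 9.43, and that of Akr1c18 was 12.07 without lung replicate 2, which held most of its lung reads. Guca1a and AC154187.2 also led, at 75.2, 101, 122 and 107 CPM and 12.4, 148, 102 and 102 CPM in SPMs, and had 0 reads in all 5 lung libraries, which puts them at least 5547-fold and 4926-fold higher in SPMs against a floor of 3 reads over the lung group. AC154187.2 shares exon sequence with Myl12a and Myl12b. Gene models can differ between the annotation releases of the tables, which was not tested.

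The 10 leading genes higher in the lung had no read in any SPM library. They were Sftpc, Sftpa1 and Sftpd, surfactant proteins of the alveolar epithelium, Inmt, Mfap4, Mgp and Col3a1, genes of fibroblasts and matrix, Cyp4b1 and Cyp2f2, cytochromes of airway cells, and Gm20481. Sftpc was at 5722, 4774, 3046, 2172 and 146 CPM in the lung libraries, at least 52100-fold higher, and Inmt at 1126, 471, 437, 403 and 205 CPM, at least 8439-fold higher. The lowest library was lung replicate 5 for both. Gm20481, at 1689, 975, 1225, 2383 and 1136 CPM, shares exon sequence with the heat shock gene Hspa1a on the opposite strand. Mfap4 shares it with Mapk7, Cyp2f2 with Gm15883 and Col3a1 with Gm47302. Most of these are known from epithelial and stromal cells, and the marker lists of other cells follow.

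Markers of other cell types moved with the tissue. Over all tested genes 23.1% were called higher in SPMs and 33.5% higher in the lung. In the lung, the summed level of 10 epithelial markers was 11630, 7409, 6239, 4254 and 348.8 CPM, against 3.88 to 11.0 CPM in SPMs, and 9 of 10 were called higher in the lung. Fibroblast markers summed to 405 to 2571 CPM in the lung and 0.365 to 1.64 CPM in SPMs (10 of 10 called), and endothelial markers to 143 to 879 CPM and 9.48 to 11.5 CPM (10 of 10 called). For these 3 lists lung replicate 5 was the lowest lung library. Mesothelial markers reached 13.6 to 148 CPM in the lung and 0.146 to 2.15 CPM in SPMs, with 6 of 6 tested called. Alveolar macrophage markers summed to 372 to 1473 CPM in the lung and 40.3 to 132 CPM in SPMs, with 9 of 10 called higher in the lung. Erythroid markers summed to 355 to 1178 CPM in the lung and 4.18 to 218 CPM in SPMs, with 6 of 6 tested called. Of 1301 genes that were over 8-fold higher in the lung and at 5 CPM or more in the median of lung replicates 1, 2 and 4, lung replicate 5 was more than 4 times below that median for 415 (31.9%), against 551 of 9383 (5.87%) of all tested genes at that level.

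In SPMs, mast cell and basophil markers summed to 506, 3298, 6630 and 3479 CPM, against 4.89 to 135 CPM in the lung. Cpa3, Tpsb2 and Mcpt4, proteases of mast cell granules, were at 1159 ± 899 CPM in SPMs and 7.80 ± 10.9 CPM in the lung, 1857 ± 1357 CPM in SPMs and 10.2 ± 16.8 CPM in the lung and 389.7 ± 211 CPM in SPMs and 4.77 ± 7.97 CPM in the lung. SPM replicate 1 was the lowest SPM library for each. Of the 8 markers 5 were called higher in SPMs and 2 higher in the lung, namely Gata2, a factor also used by endothelium (3.80 ± 1.27 CPM in SPMs and 16.0 ± 11.3 CPM in the lung; -2.07, SE 0.62, adjusted p = 0.0125), and Kit, the stem cell factor receptor (2.27 ± 0.396 CPM in SPMs and 8.08 ± 4.55 CPM in the lung; -1.83, SE 0.66, adjusted p = 0.0309). Kit lost its call when any of 6 single libraries was left out (adjusted p from 0.0505 to 0.0731). Lung replicate 1 held the most of the 3 proteases in the lung, and without it their log2 fold changes were 8.33 for Cpa3, 9.03 for Tpsb2 and 8.04 for Mcpt4. That of Cpa3 was 6.62 without SPM replicate 3. Dendritic cell markers summed to 480 to 2411 CPM in SPMs and 75.5 to 1024 CPM in the lung, where lung replicate 3 was the highest, with 2 of 10 members called higher in SPMs and 5 higher in the lung. Classical monocyte markers summed to 2989 to 7868 CPM in SPMs, highest in SPM replicate 1, and to 586 to 1548 CPM in the lung, with 4 of 7 tested called higher in SPMs and 1 in the lung. Summed B cell markers overlapped between the tissues, at 575 to 2319 CPM and 493 to 2913 CPM, with 1 of 10 called higher in SPMs and 2 higher in the lung. So did T cell markers, at 121 to 269 and 59.1 to 197 CPM, with 3 and 2 of 10, and neutrophil markers, at 28.5 to 155 and 47.6 to 134 CPM, with 1 and 2 of 6 tested.

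The NK cell and platelet lists overlapped in their sums while most members were called higher in the lung. NK cell markers summed to 70.6 to 258 CPM in SPMs and 189 to 422 CPM in the lung, and 7 of 10 were higher in the lung and 1, the activating receptor gene Klrk1, in SPMs. The Klrk1 call was lost with scaling by library size alone (adjusted p = 0.373) and in ACKR2-/- samples (adjusted p = 0.467). Gzmb, the protease granzyme B of killer cells, was at 1.23 ± 0.793 CPM in SPMs and 53.1 ± 26.8 CPM in the lung (-5.42, SE 0.67, adjusted p = 3.45e-05). Platelet and megakaryocyte markers summed to 165 to 870 CPM in SPMs and 52.9 to 434 CPM in the lung, yet 5 of 6 tested were higher in the lung and 1 in SPMs. The latter was Pf4, the chemokine platelet factor 4, which macrophages also make and which carried most of the sum (486 ± 308 CPM in SPMs and 141 ± 159 CPM in the lung; 1.78, SE 0.68, adjusted p = 0.0401). The Pf4 call was lost when any of 6 single libraries was left out (adjusted p from 0.0829 to 0.139), and with scaling by library size alone (adjusted p = 0.632). Its log2 fold change was 2.60 without lung replicate 3. 

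The eosinophil sum, 84.8 to 827 CPM in SPMs and 6.58 to 35.7 CPM in the lung, was almost wholly Alox15. The defining eosinophil genes Epx and Prg3 had 0 reads in all 9 libraries, and Prg2 had 1 read in SPMs and 2 in the lung. The part of these other cells in the differences reported here was not tested.

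**Figure D3:**
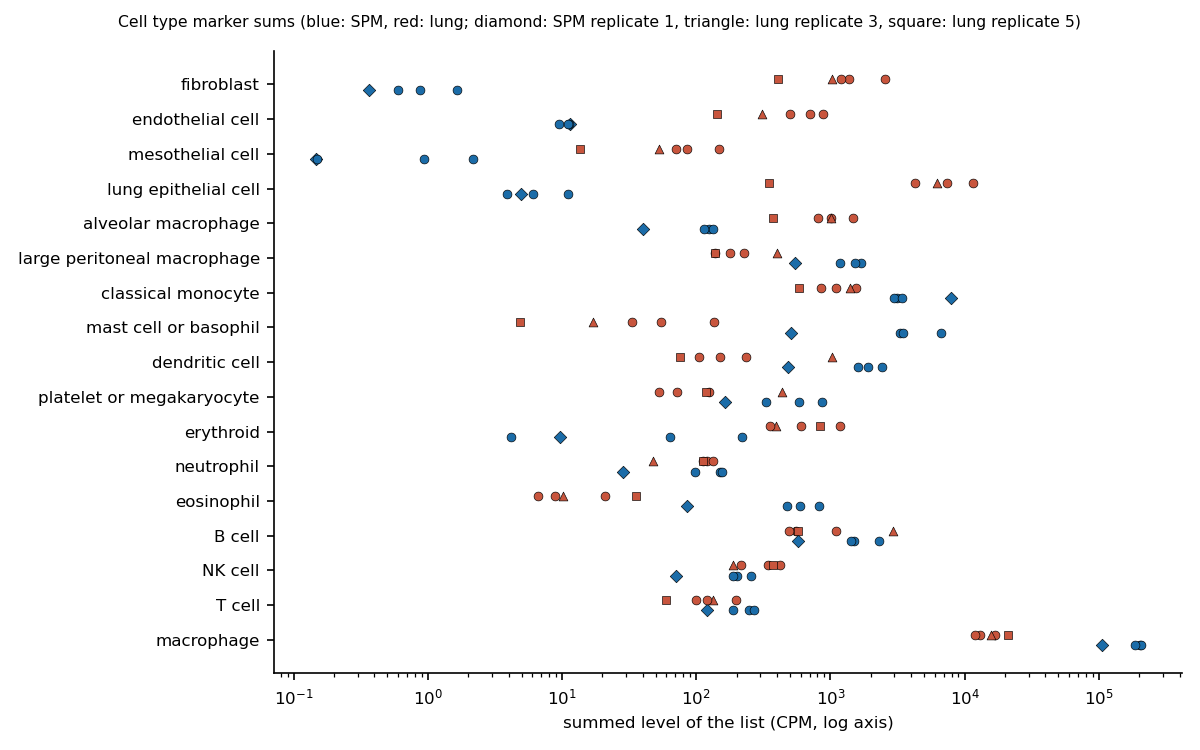
Summed level (CPM, log axis) of each cell type marker list in each WT SPM (blue) and WT lung (red) library. Lung libraries lie to the right for the epithelial, fibroblast, endothelial and mesothelial lists, SPM libraries for the mast cell and macrophage lists, and lung replicate 5 (square) is the lowest lung library in all 4 of the former.

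The genes behind the sort gates were read as a check of the labels. Ptprc, which encodes CD45, was at 311 ± 121 CPM in SPMs and 603 ± 233 CPM in the lung, and was thus plain in both. Itgam (CD11b), which shares exon sequence with Gm49368, was higher in SPMs (218 ± 101 CPM in SPMs and 56.1 ± 28.3 CPM in the lung; 1.96, SE 0.39, adjusted p = 0.00107). Adgre1 (F4/80) was higher in the lung (120.2 ± 27.0 CPM in SPMs and 292 ± 92.7 CPM in the lung; -1.28, SE 0.28, adjusted p = 0.00221). H2-Ab1, an MHC class II chain, was at 44708, 60786, 64230 and 60174 CPM in SPMs and 1135, 651, 13974, 489 and 401 CPM in the lung. Lung replicate 3 was an order of magnitude above the other lung libraries, although it was sorted as MHCII negative. The Itgam call was lost with scaling by library size alone (adjusted p = 0.176), and that of Adgre1 in ACKR2-/- samples (adjusted p = 0.159). Cd226 and Mertk, surface markers of SPMs, were higher in SPMs (138 ± 42.5 CPM in SPMs and 2.27 ± 1.69 CPM in the lung; 5.92, SE 0.57, adjusted p = 6.12e-06, and 30.2 ± 3.12 CPM in SPMs and 6.62 ± 3.76 CPM in the lung; 2.19, SE 0.40, adjusted p = 0.000589). Mertk lost its call with scaling by library size alone (adjusted p = 0.106). Siglecf was low, at 0.598 to 1.47 CPM in SPMs and 0.357 to 6.12 CPM in the lung. Its call as higher in the lung was lost without SPM replicate 1, 3 or 4 (adjusted p from 0.0538 to 0.0634). Ly6g, left out by the filter, had 15 reads in SPMs and 7 in the lung (exact two-sided permutation test, p = 0.0952, where 0.0159 is the smallest that 4 against 5 samples allow). Ly6c2, the monocyte form of Ly6C, was at 70.6 ± 31.1 CPM in SPMs and 22.6 ± 12.4 CPM in the lung, and Ly6c1, shared by endothelium, was at 4.14 ± 0.902 CPM in SPMs and 112 ± 83.1 CPM in the lung. Ackr2 was at 0.365, 0.69, 1.05 and 0.565 CPM in SPMs and 14.7, 11.2, 5.10, 9.23 and 0 CPM in the lung (-3.64, SE 1.09, adjusted p = 0.0128). The library without a read of it was lung replicate 5, which had the fewest epithelial and stromal reads. The ACKR2-/- lung libraries, scaled among the ACKR2-/- samples, held 1.20, 0.970, 0.713, 0.207 and 0.241 CPM, and each ACKR2-/- SPM library held 0. Which lung cells the Ackr2 reads came from was not tested.

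Of 10 macrophage markers 5 were called higher in SPMs and 2 higher in the lung, and their sum of 105400 to 205400 CPM in SPMs and 11940 to 20970 CPM in the lung was mostly Lyz2. Peritoneal macrophage genes were higher in SPMs for 14 of 21 tested members and in the lung for 0, with a list median of 2.56 against -0.25 for all genes. Beside this and the list counts below stand shares over all tested genes of 23.1% higher in SPMs and 33.5% higher in the lung. Scaling by library size alone changed these counts to 9 and 2, and changed those of the lists below to 8 and 5 for monocyte-derived cavity macrophages, 5 and 12 for lung interstitial macrophages, 5 and 1 for MHC class II, 0 and 19 for nonclassical monocytes, 3 and 19 for chemokine ligands and 2 and 13 for lipid handling. Vsig4, a complement receptor of resident macrophages, was at 13.8, 59.6, 136 and 99.7 CPM in SPMs and 1.29, 1.20, 0.476, 0 and 0 CPM in the lung (7.0, SE 1.07, adjusted p = 0.000162). Fcna, the lectin ficolin A, was also higher (739 ± 258 CPM in SPMs and 8.84 ± 5.51 CPM in the lung; 6.38, SE 0.56, adjusted p = 2.95e-06) and overlaps its antisense gene Fcnaos. Prg4, the joint lubricant proteoglycan, had 244 ± 57.8 CPM in SPMs and 8.02 ± 7.44 CPM in the lung (4.93, SE 0.63, adjusted p = 4.22e-05) and overlaps Tpr on the other strand. SPM replicate 1 was the lowest SPM library for Vsig4, Fcna, Saa3 and Alox15.

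Timd4, a receptor for dying cells on resident macrophages, was at 44.5, 201, 300.4 and 263 CPM in SPMs and 8.44, 8.70, 12.7, 2.90 and 4.53 CPM in the lung (4.76, SE 0.57, adjusted p = 2.96e-05). Gata6, the factor that defines large peritoneal macrophages and overlaps 1010001N08Rik, was at 3.79, 1.55, 3.59 and 4.14 CPM in SPMs and 2.57, 2.58, 1.67, 3.57 and 0.464 CPM in the lung. It was low in both, and the difference of 0.59 was not called (adjusted p = 0.375) and changed sign, to -0.81, with scaling by library size alone. Markers of large peritoneal macrophages summed to 548 to 1687 CPM in SPMs and 138 to 398 CPM in the lung, with 6 of 10 called higher in SPMs.

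Genes of SPMs and other monocyte-derived cavity macrophages were higher in SPMs for 11 of 20 members and higher in the lung for 2, with a median of 2.03. Ccr2, the chemokine receptor that brings monocytes out of the marrow, was at 2762, 1218, 967 and 1244 CPM in SPMs and 19.9, 15.8, 222, 23.6 and 21.6 CPM in the lung (4.68, SE 0.85, adjusted p = 0.000571). SPM replicate 1 held the most Ccr2 among SPMs, and lung replicate 3 the most among the lung libraries, without which the log2 fold change was 6.15. Irf4, a factor needed for this lineage, was at 46.6, 24.0, 20.2 and 23.5 CPM in SPMs and 3.26, 2.51, 19.0, 7.0 and 2.96 CPM in the lung (2.04, SE 0.58, adjusted p = 0.00934). Its log2 fold change was 2.74 without lung replicate 3, and its call was lost with scaling by library size alone (0.77, adjusted p = 0.285). Cd209d, a C-type lectin, was higher in SPMs (86.7 ± 25.7 CPM in SPMs and 2.29 ± 3.97 CPM in the lung; 5.25, SE 0.97, adjusted p = 0.000669, or 7.18 without lung replicate 3). Itgax, which encodes CD11c, was higher in the lung (10.9 ± 4.40 CPM in SPMs and 73.4 ± 24.2 CPM in the lung; -2.74, SE 0.34, adjusted p = 3.88e-05). Without lung replicate 3 the list had 15 members higher in SPMs and 1 higher in the lung, with a median of 3.11.

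Nonclassical monocyte genes were higher in the lung for 16 of 19 tested members, none was called higher in SPMs, and the list median was -3.24. Cd300e, an activating receptor of patrolling monocytes, was at 0, 0.345, 0.598 and 0.502 CPM in SPMs and 500.4, 485, 53.1, 466 and 735 CPM in the lung (-10.34, SE 0.97, adjusted p = 4.90e-06). Treml4, a receptor of the same cells, was at 1.75, 6.81, 4.33 and 5.40 CPM in SPMs and 595, 569, 68.7, 601 and 991 CPM in the lung (-6.95, SE 0.77, adjusted p = 1.63e-05). Both were high in 4 lung libraries and about 10 times lower in lung replicate 3, which still lay above every SPM library. Nr4a1 was at 5.98, 3.79, 2.09 and 5.46 CPM in SPMs and 2233, 2620.5, 908, 3037 and 2596 CPM in the lung (-9.02, SE 0.57, adjusted p = 3.93e-07). Nr4a1 is also an immediate early gene and is counted in that list too.

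Ace, the angiotensin converting enzyme (0.666 ± 0.975 CPM in SPMs and 183 ± 101 CPM in the lung; -8.01, SE 1.04, adjusted p = 4.84e-05), Eno3, a muscle enolase (3.63 ± 0.888 CPM in SPMs and 372 ± 189.6 CPM in the lung; -6.66, SE 0.59, adjusted p = 3.51e-06), and Adgre4, an adhesion receptor related to F4/80 (30.5 ± 2.14 CPM in SPMs and 517 ± 317 CPM in the lung; -4.08, SE 0.58, adjusted p = 9.33e-05), followed the same pattern. Lung replicate 3 was the lowest lung library for all 3. Ace was at -9.98 without SPM replicate 1. Ace overlaps Gm11651 on the opposite strand. Spn, which encodes CD43, overlapped between the tissues because lung replicate 3, at 21.3 CPM, lay within the SPM range (-1.95, SE 0.43, adjusted p = 0.00225). Without lung replicate 3, 18 of 19 members were called higher in the lung. Further genes were chosen after their values were seen, as the leading lung genes that share no exon and were not depleted in lung replicate 5. Ogn led them, and besides Cd300e and Nr4a1 they included Fhl1, Cdo1, Gdf15, Cxcl1 and Scnn1a, an epithelial sodium channel subunit. Among them, Dusp2, a phosphatase that switches off MAP kinases, was at 361, 408, 267, 579.7 and 495 CPM in the lung and 1.68, 0.948, 0.149 and 1.26 CPM in SPMs. G0s2, an inhibitor of lipolysis, was at 265, 177, 47.2, 227 and 227 CPM in the lung and 0.584, 1.21, 1.64 and 0.44 CPM in SPMs. Which cells the reads of these genes came from was not tested.

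Lung interstitial macrophage genes did not move together. Of 22 members 9 were higher in SPMs and 7 higher in the lung (23.1% and 33.5% of all tested genes), and the median was -0.52, or 0.05 without lung replicate 3, where 10 and 7 were called. C1qb, a chain of the first complement component that tissue macrophages make, was at 12268, 15403, 15951 and 17125 CPM in SPMs and 403, 234, 3339.5, 182 and 305 CPM in the lung (4.09, SE 0.85, adjusted p = 0.00145). C1qa and C1qc were likewise higher in SPMs (log2 fold changes of 2.12 and 3.23), but the C1qa call was lost when any of 6 single libraries was left out, with adjusted p between 0.065 and 0.0875, and with scaling by library size alone (adjusted p = 0.36). Lung replicate 3 held 8 to 18 times the C1qb of the other lung libraries, and without it the log2 fold changes of C1qa, C1qb and C1qc were 3.51, 5.60 and 4.59. Cd163, a haemoglobin scavenger receptor, was higher in SPMs (54.0 ± 6.71 CPM in SPMs and 6.35 ± 5.07 CPM in the lung; 3.09, SE 0.48, adjusted p = 0.000187).

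Higher in the lung were Ms4a7, Gas6 and Tmem119. Ms4a7, a membrane protein of mature macrophages, was at 0.511, 2.41, 1.49 and 1.38 CPM in SPMs and 48.9, 27.1, 386, 20.4 and 43.1 CPM in the lung (-6.19, SE 1.05, adjusted p = 0.000355), with lung replicate 3 far above the rest and a log2 fold change of -4.75 without it. Gas6, the ligand of MERTK, was at 0.996 ± 0.439 CPM in SPMs and 54.2 ± 19.2 CPM in the lung (-5.72, SE 0.45, adjusted p = 1.52e-06) and overlaps Tmem255b. Tmem119, known from microglia and from stromal cells, was at 1.53 ± 0.357 CPM in SPMs and 48.7 ± 46.1 CPM in the lung (-5.01, SE 0.69, adjusted p = 7.56e-05, or -4.41 without lung replicate 3).

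MHC class II genes were higher in SPMs for 8 of 10 members, with a median of 3.44, and 0 were higher in the lung. Presence or absence of this complex was part of both sort gates, so the direction was set by the design. H2-Aa was at 33217, 53148, 46728 and 52101 CPM in SPMs and 625, 399, 10928, 309 and 249.8 CPM in the lung (4.21, SE 1.12, adjusted p = 0.00676). Ciita, the master regulator of the class, was at 211, 126.3, 85.5 and 124 CPM in SPMs and 5.18, 5.53, 64.7, 6.75 and 1.68 CPM in the lung (3.03, SE 0.87, adjusted p = 0.0103) and overlaps Dexi. Lung replicate 3 lay between the SPMs and the other lung libraries for both. Without it the log2 fold changes were 6.71 and 4.69, all 10 members were called higher in SPMs, and the list median was 4.98. The Ciita call was lost with scaling by library size alone (adjusted p = 0.0947).

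**Figure D4:**
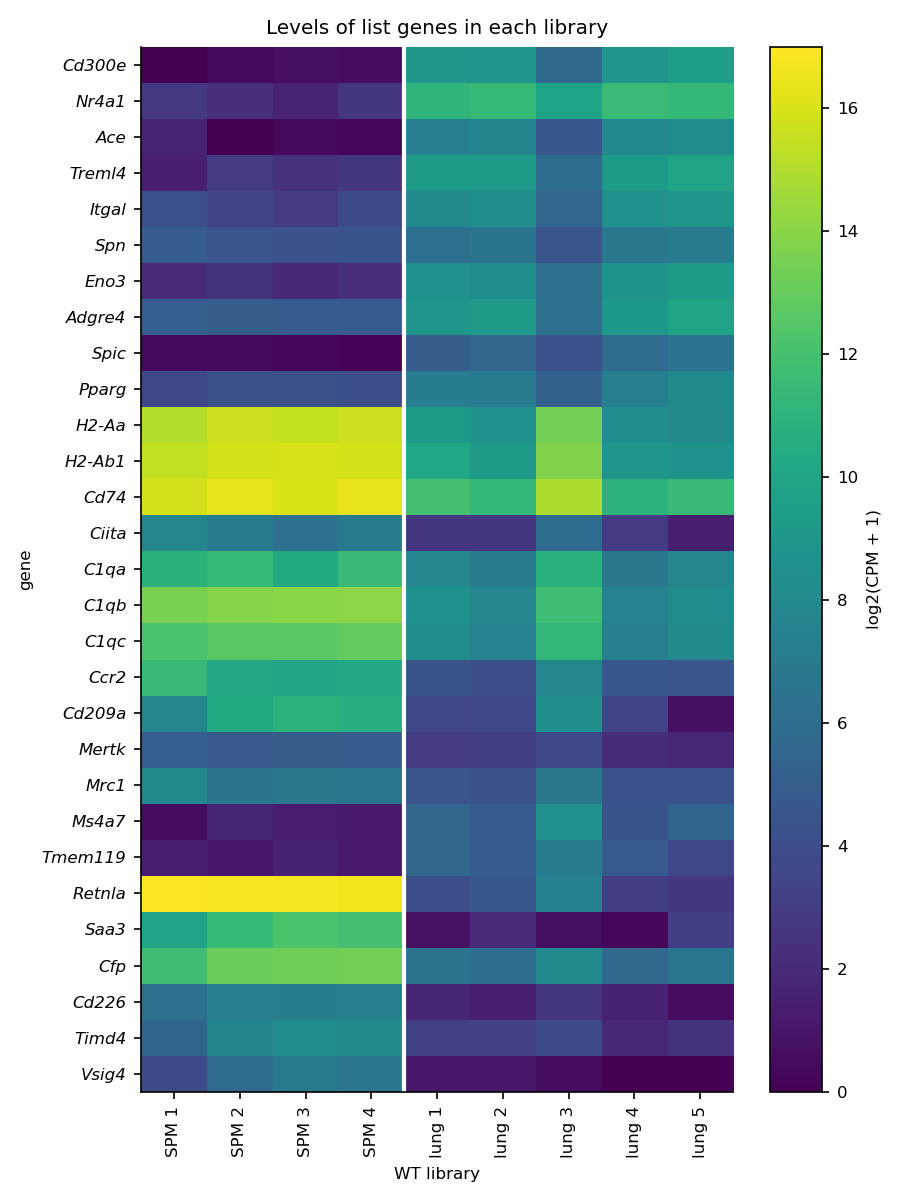
Level of 29 list genes, as log2(CPM + 1), in each of the 4 WT SPM and 5 WT lung libraries. Nonclassical monocyte genes (Cd300e to Adgre4) are high in lung replicates 1, 2, 4 and 5 and lower in replicate 3, whereas MHC class II, C1q, Ccr2 and Cd209a transcripts are higher in lung replicate 3 than in the other lung libraries.

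Among chemokine receptors 3 of 18 tested were higher in SPMs and 7 in the lung, shares near those of all genes (23.1% and 33.5%). The SPM-high receptors included Ccr2 and Ccr1, a further receptor for inflammatory CC chemokines (245 ± 87.7 CPM in SPMs and 24.4 ± 25.2 CPM in the lung; 3.32, SE 0.59, adjusted p = 0.000476, or 4.04 without lung replicate 3). Cxcr4, Ccrl2, Ackr4, Ccr7, Ackr3, Cx3cr1 and Ackr2 were higher in the lung. The Ackr3 call was lost when any of 6 single libraries was left out (adjusted p from 0.0533 to 0.0737). Ccrl2, an atypical receptor that presents chemerin, was at 7.0, 17.3, 17.3 and 17.5 CPM in SPMs and at 393, 403, 354, 368 and 398 CPM in the lung (-4.70, SE 0.33, adjusted p = 7.87e-07). The 5 lung libraries thus lay close together and far above the SPMs. Ackr4, a scavenger of CCL19 and CCL21, had 3 reads over the SPM group and 458 over the lung group, a ratio of 43.4 (95% interval 14.8 to 211, for counting error only), and overlaps Acad11. Cx3cr1, the fractalkine receptor of patrolling monocytes, was higher by 2.93-fold (-1.55, SE 0.30, adjusted p = 0.000968) and overlaps Gm33858.

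Of 25 chemokine ligand genes 4 were higher in SPMs and 18 higher in the lung, with a median of -3.10. Ccl6 and Ccl9, constitutive macrophage chemokines, were at 44107 ± 10883 CPM in SPMs and 668 ± 158 CPM in the lung (6.04, SE 0.41, adjusted p = 5.88e-07) and 7106 ± 1329 CPM in SPMs and 190 ± 65.1 CPM in the lung (5.22, SE 0.36, adjusted p = 7.32e-07), and Ccl24, which recruits eosinophils, at 272 ± 32.5 CPM in SPMs and 4.800 ± 3.71 CPM in the lung (5.83, SE 0.55, adjusted p = 5.55e-06). Cxcl1, Cxcl2 and Cxcl3 encode chemokines that recruit neutrophils. Cxcl2 was at 1.82, 2.93, 1.20 and 2.01 CPM in SPMs and 345, 369, 748, 223 and 209 CPM in the lung (-7.55, SE 0.54, adjusted p = 7.88e-07). Cxcl1 gave 0.247 ± 0.126 CPM in SPMs and 54.6 ± 25.7 CPM in the lung (-7.74, SE 0.55, adjusted p = 8.05e-07), and Cxcl3 had 1 read over the SPM group and 1027 over the lung group, a ratio of 292 (95% interval 52.3 to 11540). Ccl3 and Ccl4, inflammatory chemokines, were higher in the lung by 96.5-fold and 76.1-fold, with Ccl4 at -5.55 on the log2 scale without lung replicate 3 against -6.25 with it. Ccl11, which is made by stromal cells, had 617 reads in the lung and 0 in SPMs, at least 58.4-fold higher. Of the ligands, 6 were higher in SPMs and 15 in the lung without lung replicate 3.

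Inflammatory cytokine genes were higher in the lung for 13 of 19 members and in SPMs for 3, with a median of -4.90, or -4.06 with members at 0 in 1 tissue set to their bound. With lung replicate 3 left out, 16 could be tested, of which 11 were higher in the lung and 3 in SPMs, with a median of -3.68. Il1b was at 15.9, 30.9, 40.6 and 28.4 CPM in SPMs and 955, 1341, 2016, 777 and 1358 CPM in the lung (-5.48, SE 0.43, adjusted p = 1.50e-06) and overlaps its antisense gene Il1bos. Tnf was at 0.511, 2.07, 2.24 and 0.942 CPM in SPMs and 96.6, 90.5, 211, 93.5 and 56.5 CPM in the lung (-6.31, SE 0.57, adjusted p = 3.72e-06). Osm, the cytokine oncostatin M, was at 1.35 ± 0.426 CPM in SPMs and 102 ± 16.0 CPM in the lung (-6.24, SE 0.33, adjusted p = 2.05e-07). No SPM library reached the lowest lung library for these 3. Ifnb1 and Il23a had 0 reads in SPMs and were at least 117-fold and 16.7-fold higher in the lung, and lung replicate 3 held the most Ifnb1 at 34.0 CPM. Il12b had 2 reads in SPMs and 778 in the lung, a ratio of 110.5 (95% interval 30.5 to 914). Il18, Tgfb2, which overlaps Gm29491, and Il15 were higher in SPMs, Il18 by 3.10-fold (1.63, SE 0.37, adjusted p = 0.00235), and all 3 calls were lost with scaling by library size alone (adjusted p = 0.624 for Il18, 0.0828 for Tgfb2 and 0.349 for Il15, which turned to -0.25).

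Immediate early and heat shock genes, which cells switch on within minutes of handling, heat or signalling, were higher in the lung for 17 of 19 members, with a median of -4.66. Their lung libraries did not overlap the SPM libraries for any of the 17. How often the groups failed to overlap over all tested genes was not determined, so this is not read as particular to the list. Fos was at 53.8, 32.7, 36.2 and 35.2 CPM in SPMs and 2133, 1729, 2922, 2336 and 1724 CPM in the lung (-5.78, SE 0.35, adjusted p = 3.90e-07). Fosb was at 0.511, 0.259, 0.598 and 0.44 CPM in SPMs and 48.6, 48.6, 62.4, 70.2 and 43.0 CPM in the lung (-6.93, SE 0.35, adjusted p = 1.94e-07). Hspa1b, an inducible stress protein of the HSP70 family, was at 50.6, 15.9, 16.1 and 18.5 CPM in SPMs and 5529.6, 3330.1, 3438, 7386 and 3988 CPM in the lung (-7.54, SE 0.58, adjusted p = 1.27e-06). Its near-identical neighbour Hspa1a had 5.88 ± 4.09 CPM in SPMs and 3006 ± 1093 CPM in the lung (-8.98, SE 0.62, adjusted p = 6.61e-07, or -9.58 without SPM replicate 1). Reads can be split between this pair, and Hspa1a shares exon sequence with Gm20481 on the opposite strand. Egr2 and Egr3 did not pass the test, and Egr3 turned from -0.40 to 0.31 without lung replicate 3. The counts were 17 and 0 without lung replicate 3, without lung replicate 5 and without SPM replicate 1. In the refit without shared exons 13 members were tested, of which 11 were higher in the lung and 0 in SPMs. Enzyme digestion was used for the lung and not for the lavage, and its part cannot be told apart from that of the tissue.

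Among 26 transcription factor genes 3 were higher in SPMs and 12 higher in the lung, against 23.1% and 33.5% of all tested genes. Spi1, which encodes PU.1, was at 334, 664, 510.2 and 722 CPM in SPMs and 601, 651, 494, 663 and 1007 CPM in the lung, and the difference of -0.29 was not called (adjusted p = 0.43) except with scaling by library size alone (-1.72, adjusted p = 9.77e-05). Batf3, a factor of cross-presenting dendritic cells, was at 245, 297, 319 and 293 CPM in SPMs and 3.07, 2.48, 19.6, 1.69 and 1.32 CPM in the lung (5.68, SE 0.79, adjusted p = 8.11e-05, or 6.91 without lung replicate 3). Id2, an inhibitor of E proteins, was higher in SPMs too (1041 ± 42.1 CPM in SPMs and 381 ± 37.6 CPM in the lung; 1.45, SE 0.21, adjusted p = 0.000118), except with scaling by library size alone (adjusted p = 0.769). Spic, the PU.1 relative of iron-recycling macrophages, was at 0.292, 0.345, 0.149 and 0.126 CPM in SPMs and 31.0, 47.0, 18.6, 61.2 and 87.3 CPM in the lung (-7.70, SE 0.61, adjusted p = 1.54e-06). Pparg, the lipid-sensing factor of alveolar macrophages, was at 12.0, 17.8, 17.6 and 15.8 CPM in SPMs and 141, 129, 36.00, 163 and 283 CPM in the lung (-3.25, SE 0.49, adjusted p = 0.000138). Irf8, a factor of monocytes and dendritic cells, was at 13.5 ± 3.90 CPM in SPMs and 164 ± 37.0 CPM in the lung (-3.60, SE 0.30, adjusted p = 2.04e-06). Lung replicate 5, with the fewest alveolar macrophage marker reads, held the most Pparg and the most Spic. Pparg is itself one of those markers, and its 283 CPM are part of the list sum of 372 CPM in that library. Which cells the Pparg reads came from was not tested.

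Of 14 growth factor and cytokine receptor genes 8 were higher in the lung and 0 higher in SPMs (33.5% and 23.1% of all tested genes), or 8 and 2 without lung replicate 3. Besides Csf1r these included Tgfbr1, the signalling chain of the TGF beta receptor (6.17 ± 2.01 CPM in SPMs and 54.5 ± 24.7 CPM in the lung; -3.15, SE 0.39, adjusted p = 3.92e-05), and Il10ra, of the interleukin 10 receptor (39.4 ± 9.69 CPM in SPMs and 272 ± 108 CPM in the lung; -2.78, SE 0.35, adjusted p = 4.32e-05).

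Lipid mediator genes divided between an SPM set and a lung set, 7 and 3 of 16 members (23.1% and 33.5% of all tested genes), with a median of 0.15, or -0.05 without lung replicate 3 and -0.01 without lung replicate 5. Along the leukotriene branch, Ltc4s, leukotriene C4 synthase, was at 269, 404, 665 and 379.5 CPM in SPMs and 9.54, 9.21, 12.5, 7.20 and 6.53 CPM in the lung (5.57, SE 0.35, adjusted p = 3.90e-07), with an overlap to Gm26542. Alox5, the 5-lipoxygenase ahead of it, was not called (47.2 ± 9.82 CPM in SPMs and 61.6 ± 9.41 CPM in the lung; -0.39, adjusted p = 0.164). It was called higher in the lung with scaling by library size alone (-1.79, adjusted p = 1.56e-05) and in the refit without shared exons (-0.61, adjusted p = 0.0285). Along the prostanoid branch, Ptgs1 and Tbxas1, cyclooxygenase 1 and thromboxane synthase, were higher in SPMs (2.76, SE 0.44, adjusted p = 0.000204 and 3.70, SE 0.59, adjusted p = 0.000231, the latter 4.51 without lung replicate 3), and both overlap predicted antisense genes. Ptgs2, the inducible cyclooxygenase 2, had 1 read over the SPM group and 3879 over the lung group, a ratio of 1102 (95% interval 198 to 43540). In the refit without shared exons the list had 10 members, of which 3 were higher in SPMs and 5 in the lung. With scaling by library size alone 5 were higher in SPMs and 9 in the lung.

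Scavenger and phagocytic receptors were higher in SPMs for 10 of 20 members and in the lung for 3 (23.1% and 33.5% of all tested genes), with a median of 1.21. The list counts became 5 and 9 with scaling by library size alone. Cd209a, a lectin of monocyte-derived cells, was at 217, 1287, 2074 and 1578 CPM in SPMs and 10.8, 11.6, 352, 10.1 and 0.642 CPM in the lung (4.07, SE 1.38, adjusted p = 0.0238). Lung replicate 3 alone overlapped the SPMs, only SPM replicate 1 was below it, and the call was lost without SPM replicate 3 or without lung replicate 1, 2 or 4 (adjusted p from 0.0542 to 0.0604) and with scaling by library size alone (adjusted p = 0.0963). The log2 fold change of Cd209a was 7.08 without lung replicate 3 (adjusted p = 7.99e-05). Mrc1, the mannose receptor, was also higher in SPMs (146 ± 87.6 CPM in SPMs and 36.1 ± 38.3 CPM in the lung; 2.01, SE 0.59, adjusted p = 0.011, or 2.83 without lung replicate 3), but not with scaling by library size alone (adjusted p = 0.275). Colec12, a scavenger receptor of stromal cells as well, was higher in the lung (2.54 ± 0.996 CPM in SPMs and 28.7 ± 14.3 CPM in the lung; -3.47, SE 0.44, adjusted p = 4.04e-05).

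Complement and coagulation genes were higher in SPMs for 8 of 20 tested members and in the lung for 5 (23.1% and 33.5% of all tested genes), or 5 and 10 with scaling by library size alone. Cfp, properdin, which stabilises the alternative pathway convertase, was at 3464, 9124, 9610.2 and 10674 CPM in SPMs and 91.7, 69.0, 268, 53.1 and 102 CPM in the lung (6.14, SE 0.59, adjusted p = 5.99e-06). Thbd, thrombomodulin, was at 2.92, 2.15, 4.48 and 1.95 CPM in SPMs and 139, 141, 35.5, 117 and 74.8 CPM in the lung (-5.17, SE 0.49, adjusted p = 5.15e-06). Serping1, the C1 inhibitor, had 2 reads over the SPM group and 31353 over the lung group, a ratio of 4454 (95% interval 1233 to 36780).

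Cathepsin and lysosomal genes were higher in SPMs for 12 of 22 members and in the lung for 5 (23.1% and 33.5% of all tested genes), or 5 and 12 with scaling by library size alone. Ctsh, an aminopeptidase of lysosomes (3033 ± 1215 CPM in SPMs and 382 ± 238 CPM in the lung; 2.99, SE 0.46, adjusted p = 0.000163), and Ctsd, the main aspartic protease there (1161 ± 327 CPM in SPMs and 249.5 ± 49.5 CPM in the lung; 2.22, SE 0.27, adjusted p = 3.59e-05, sharing exon sequence with Gm49369), were among the former. Lgmn, the lysosomal asparaginyl endopeptidase, was higher in the lung (54.6 ± 23.8 CPM in SPMs and 429.6 ± 165 CPM in the lung; -2.98, SE 0.43, adjusted p = 0.000115). Ctsk, the collagen-degrading cathepsin K, had 0 reads in SPMs and was at least 253-fold higher in the lung. Of 17 lipid handling genes tested 4 were higher in SPMs and 5 in the lung, shares near those of all genes (23.1% and 33.5%), or 4 and 8 without SPM replicate 1. Apoe (22800 ± 5832 CPM in SPMs and 4271 ± 1438 CPM in the lung; 2.42, SE 0.37, adjusted p = 0.000161) and Lpl, lipoprotein lipase (846 ± 141 CPM in SPMs and 128 ± 104 CPM in the lung; 2.73, SE 0.46, adjusted p = 0.000356), were higher in SPMs. Gpnmb, a glycoprotein of lipid-laden macrophages, had 0 reads in SPMs and was at least 200-fold higher in the lung.

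Integrin and adhesion genes were higher in the lung for 11 of 19 members and in SPMs for 3 (33.5% and 23.1% of all tested genes), with a median of -1.01. Itgal, the CD11a chain of LFA-1, was at 17.1, 10.4, 6.87 and 14.0 CPM in SPMs and 263, 355, 46.2, 391 and 459 CPM in the lung (-4.64, SE 0.61, adjusted p = 5.30e-05), with lung replicate 3 the lowest lung library. Itgb5 was higher in the lung as well (2.25 ± 0.704 CPM in SPMs and 125.6 ± 34.7 CPM in the lung; -5.78, SE 0.35, adjusted p = 3.82e-07). Vcam1 and Pecam1, both made by endothelium, were higher there too (0.146 ± 0.207 CPM in SPMs and 47.1 ± 21.4 CPM in the lung; -8.00, SE 0.69, adjusted p = 2.89e-06, and 2.13 ± 0.251 CPM in SPMs and 77.3 ± 33.9 CPM in the lung; -5.18, SE 0.40, adjusted p = 1.39e-06). Vcam1 overlaps Gm43109 and was at -9.47 without SPM replicate 4. Of 14 Toll-like receptor pathway genes tested 3 were higher in SPMs and 4 in the lung, shares near those of all genes (23.1% and 33.5%). Tlr11, a sensor of profilin, was at 5.33, 5.26, 3.14 and 5.27 CPM in SPMs and 0, 0, 0.408, 0 and 0 CPM in the lung (5.87, SE 1.11, adjusted p = 0.00078), with all 12 lung reads in lung replicate 3. Its fitted log2 fold change was 9.70 without that library. Tlr4, the endotoxin sensor, was higher in SPMs too (23.5 ± 3.55 CPM in SPMs and 7.33 ± 2.73 CPM in the lung; 1.68, SE 0.30, adjusted p = 0.000457), except with scaling by library size alone (adjusted p = 0.343). Tlr2, a sensor of lipoproteins, was at 8.02, 7.84, 5.83 and 9.04 CPM in SPMs and 209.8, 278, 298, 187 and 299 CPM in the lung (-5.04, SE 0.29, adjusted p = 3.66e-07), and Tlr7 and Tlr13, which sense RNA, were also higher in the lung (log2 fold changes of -2.77 and -4.18).

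Genes commonly used as references were not level. Of 18 members 11 were higher in SPMs and 2 higher in the lung, with a median of 0.80, and this turned to 1 and 9 with scaling by library size alone. Actb was at 23593, 50933, 23668 and 49542 CPM in SPMs and 3989.6, 3184, 4278, 3344 and 4571 CPM in the lung (3.25, SE 0.39, adjusted p = 2.65e-05). Gapdh, which overlaps Iffo1 and has many processed copies, was at 113, 6.38, 2.09 and 5.59 CPM in SPMs and 56.2, 51.8, 38.0, 77.6 and 72.4 CPM in the lung and was not called (adjusted p = 0.421), but without SPM replicate 1, the one SPM library above the lung, it was called higher in the lung (-3.62, adjusted p = 4.6e-05), as it was with the replicate block, with all 18 macrophage samples and in ACKR2-/- samples. Hprt was higher in SPMs by 1.42 on the log2 scale with TMM and at -0.026 with scaling by library size alone.

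**Figure D5:**
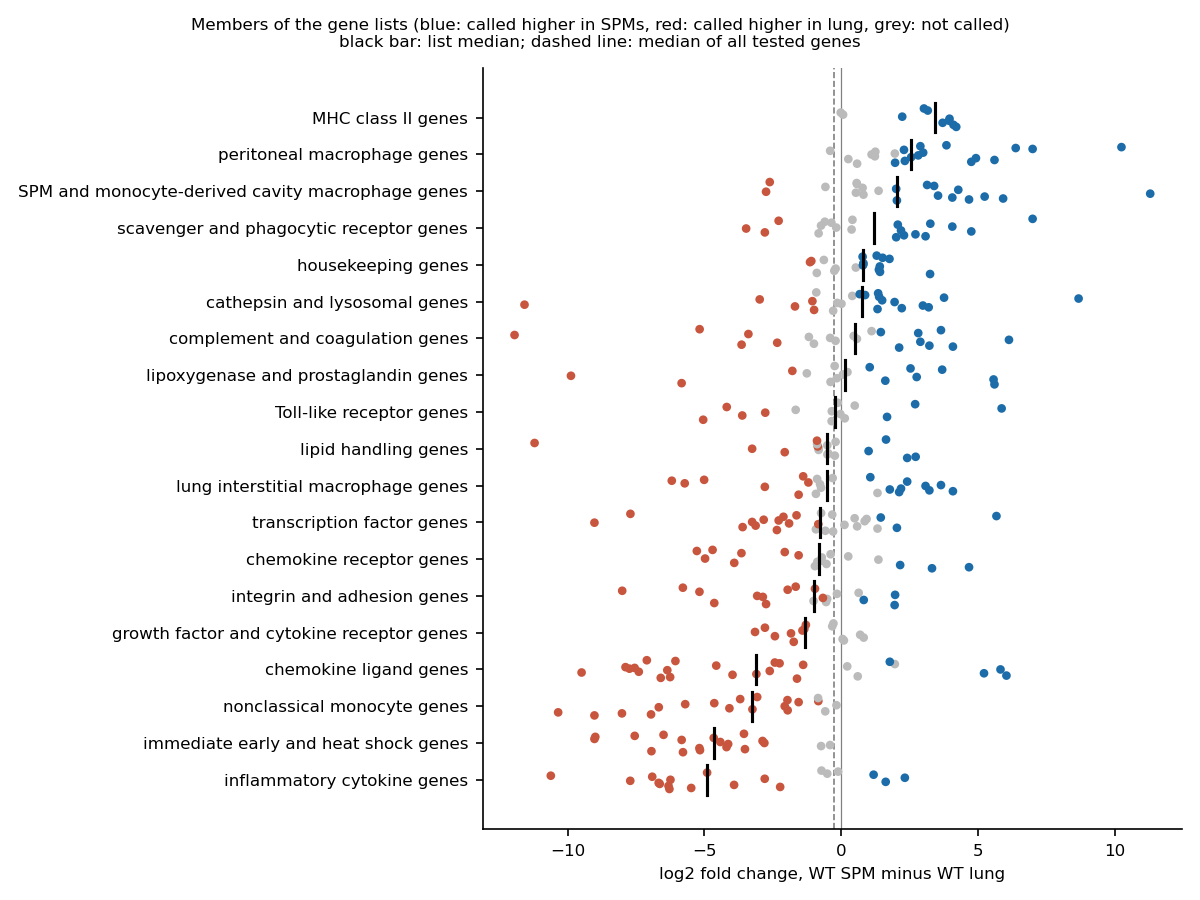
Log2 fold change (WT SPM minus WT lung) of every tested member of the 19 gene lists, with list medians as black bars and the median of all tested genes (-0.25) as a dashed line. Members with 0 reads in 1 tissue stand at a fitted value that depends on a prior count. Nonclassical monocyte and immediate early genes lie to the left of zero where called, MHC class II and peritoneal macrophage genes to the right, and lung interstitial macrophage genes on both sides.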

How the data were processed

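RNA was sequenced after poly-A enrichment and SMARTer amplification, per the study's methods. The submitters' processing notes name HISAT2 2.0.5, featureCounts 1.5.0-p3 and DESeq2, with the mm10 build. The authors deposited raw read counts per gene, in one table for SPMs and another for lung macrophages, and these counts were used as deposited. The tables were joined on gene identifier, which left 50889 genes, after removal of loci without a name and of the 5 summary lines of the lung table, which held 54.8% to 58.3% of its counts. For the lung table, the tool and annotation release are not given in the sources consulted.

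Genes were filtered with filterByExpr and tested with the quasi-likelihood test of edgeR 4.0.16 in R 4.3.3, after TMM scaling. Genes were called at a Benjamini-Hochberg adjusted p under 0.05 where the log2 fold change also passed 0.5 in size. Adjusted p values in the text come from this test over all 15716 genes tested unless DESeq2 (1.42.0) is named. Values of 4 SPM and 5 lung libraries are given in the order of their replicate numbers, and means as mean ± SD. The lung samples are not stated to come from separate mice, so p-values measure the spread between samples, which may be technical. Intervals for ratios of 1 to 3 reads cover counting error only. Exon overlap was read from GENCODE M21. No pair of replicates agreed within sampling noise.

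The contrast, gene lists and markers were chosen with earlier results of these data known. The text names the markers of the contrast, the 10 protein-coding genes per direction with the largest fold change among called genes at 50 CPM or more whose groups do not overlap, sort gate genes and the leading members of each list, and further members as examples chosen after their values were seen. Alternatives were other scaling factors, filters, call rules and tests, protein-coding genes alone, a replicate block, left-out libraries and the ACKR2-/- libraries. The refit without shared exons was added after seeing the data. Scripts were tested on simulated counts. Some members of the lists and gates are not reported here.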

Additional observations from a re-analysis of the deposited data

Results flagged for a closer look

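Single libraries were compared with the rest of their group by Dixon's ratio, for 268 sets of values of a named gene in the 4 SPM or the 5 lung libraries. Of these, 53 (19.8%) had a library apart, where chance gives about 1 in 20, and 31 of them were lung replicate 3 and 15 were SPM replicate 1.

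Lung replicate 3 was the highest lung library for antigen presentation genes, with H2-Ab1 at 14000 CPM, H2-Aa at 10900 CPM, H2-DMa at 858 CPM, H2-DMb1 at 764 CPM and Ciita at 64.7 CPM. It was also the highest for complement genes, with C1qb at 3340 CPM, C1qc at 2420 CPM, C1qa at 1810 CPM and Cfp, properdin, at 268 CPM. Among genes of monocyte-derived cells it held Pf4 at 421 CPM, Ms4a7 at 386 CPM, Mrc1 at 105 CPM, Cd209a at 352 CPM, Ccr2 at 222 CPM, Retnla at 175 CPM, Ccr1 at 69.3 CPM, Batf3 at 19.6 CPM, Irf4 at 19.0 CPM and Cd209d at 9.38 CPM. Ccl4 stood at 1220 CPM there, Ctsh at 806 CPM, Lpl at 310 CPM, Tnf at 211 CPM, Tbxas1 at 71.8 CPM, Egr2 at 68.6 CPM, Egr3 at 8.7 CPM, Itgb5 at 187 CPM, Ifnb1 at 34.0 CPM and Mucl1 at 2.11 CPM. It was also apart for Rpl13a, a ribosomal protein gene, at 5.17 CPM. For Scnn1a, an epithelial sodium channel subunit, it was instead the lowest lung library, at 6.29 CPM.

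SPM replicate 1 was apart from the other SPM libraries for Ccl6 at 27900 CPM, Ccr2 at 2760 CPM, Mrc1 at 277 CPM, Gapdh at 113 CPM, Cd163 at 64.0 CPM, Fos at 53.8 CPM, Spn at 29.6 CPM, Itgax at 17.4 CPM, H2-DMa at 2190 CPM, H2-DMb1 at 1500 CPM, Ccr1 at 114 CPM, Hspa1b at 50.6 CPM, Irf4 at 46.6 CPM, Ccrl2 at 7.0 CPM and Ace at 2.12 CPM. The direction varied: it was the lowest SPM library for Ccl6, Ccr1 and Ccrl2, for example, and the highest for Ccr2, Gapdh and Irf4. Lung replicate 1 was apart for Inmt at 1130 CPM, Cdo1 at 144 CPM, Mcpt4 at 18.7 CPM and Ccl11 at 9.51 CPM, lung replicate 5 for Tlr7 at 83.5 CPM, SPM replicate 4 for Rplp0 at 1430 CPM and SPM replicate 3 for Tlr11 at 3.14 CPM.

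For named genes, the tissue difference itself differed between WT and ACKR2-/- mice for Ctse and for Btg2, an antiproliferative immediate early gene. It differed by 4.16 on the log2 scale for Ctse (edgeR interaction test, adjusted p = 4.79e-05) and by -2.31 for Btg2 (adjusted p = 0.00287). Both genes lie on chromosome 1, and Ackr2 lies on chromosome 9.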

How the results depend on the processing

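Scaling by library size alone gave 1305 genes higher in SPMs and 10118 higher in the lung, and turned Hprt to -0.026, Gata6 to -0.81 and Il15 to -0.25, none called there. Uncalled Alox5 was 0.11 in ACKR2-/- samples and uncalled Egr3 ran from -1.06 to 0.31 over the fits that left out 1 library. Genes without a shared exon gave 2168 and 2913, with 1886 over 8-fold and 4375 called alike in ACKR2-/- samples, from fewer genes tested and with scaling recomputed on them. Protein-coding genes alone gave 2300 over 8-fold. Ctse was -1.08 in ACKR2-/- samples, and 1.23 (adjusted p = 0.0729) with all 18 macrophage samples. Leaving out each library in turn gave 2919 to 3940 genes higher in SPMs, 4533 to 6132 higher in the lung and 2824 to 4061 over 8-fold. With the replicate number as a block the counts were 3140 and 4872. Samples shared only a number, since the deviations of same-numbered samples correlated at -0.325, -0.0698, 0.19 and -0.192, so this pairing is not part of the design. Apart from the settings named, the counts of calls stayed within 1.5 times. Genes with few reads, such as Ly6g, were given only the exact test, whose smallest p of 0.0159 limits them.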

Other observations

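The tissue difference also differed between genotypes, by the edgeR interaction test over all genes, for Ppfia4, which encodes a liprin, and for Rab7b, a small GTPase of late endosomes. It differed by -7.51 on the log2 scale for Ppfia4 (adjusted p = 1e-06) and by -6.38 for Rab7b (adjusted p = 0.000191). Together with Ctse and Btg2, which lie on the same chromosome, they were the only genes with an adjusted p under 0.05 in this test. Whether these results share a cause was not tested. After Ctse and Btg2, the smallest adjusted p of a named gene in this interaction test was 0.384, for Osm.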
